A study of Rattus norvegicus with 8 samples.

Results

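The genes described here are 40 genes of fatty acid oxidation and targets of the peroxisome proliferator-activated receptors (PPARs), measured in primary cultures of rat semicircular canal duct (SCCD) epithelium, a sodium-absorbing epithelium of the inner ear. The genes were taken by name, and each was represented by its probe set with the highest mean signal among those that the array annotation assigns to that gene alone. Of the 40 genes, 39 had such a probe set, and 30 had a mean signal of at least 100 over all arrays and were tested among the 10368 tested probe sets of a table of 15923. Acaa1a, a peroxisomal thiolase, had no probe set of its own and was not measured. Cultures were prepared from the canals of neonatal Wistar rats and were either left untreated (control, n = 4) or treated with 100 nM dexamethasone, a synthetic glucocorticoid (n = 4). Total RNA of each sample was amplified before hybridization, and 1 Affymetrix rat array per sample is used here, whose signals are linear intensities in arbitrary units. Neither the time of exposure nor whether the cultures came from separate dissections is given for the arrays in the sources used here, so p-values here reflect only how far these samples spread, which may be technical.

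Mitochondrial beta-oxidation shortens fatty acids to acetyl-CoA. Fatty acids are first activated to acyl-CoA, carried into the matrix by the carnitine shuttle, and then passed through dehydrogenases, hydratases and thiolases whose electrons enter the respiratory chain through the electron transfer flavoprotein. PPARs are nuclear receptors that bind fatty acids, pair with retinoid X receptors and switch on many of these genes, and glucocorticoids raise several PPAR targets, among them Angptl4 and Pdk4, in fasting liver, muscle and fat.

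Angptl4 is a secreted inhibitor of lipoprotein lipase, and Pdk2 is a kinase that switches off pyruvate dehydrogenase. Both had the largest differences between the groups among the 30 tested members, though neither passed the main test given below. The sequences ahead of both genes are shown for the size of these differences, and no result depends on them. They are the 250 bases before each gene's start site on the gene's strand, from RefSeq on build GRCr8, and 33 of the 40 members had such a sequence. Capitals mark a TATAAA match on the gene strand in Angptl4 and CCAAT matches, here on the opposite strand, in Pdk2.
Angptl4, chr7:15258682-15258931, minus strand: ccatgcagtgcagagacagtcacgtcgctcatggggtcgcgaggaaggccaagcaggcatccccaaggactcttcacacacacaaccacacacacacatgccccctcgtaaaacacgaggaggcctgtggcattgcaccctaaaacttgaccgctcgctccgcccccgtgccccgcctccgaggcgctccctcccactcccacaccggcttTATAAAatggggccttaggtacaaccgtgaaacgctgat
Pdk2, chr10:80483913-80484162, minus strand: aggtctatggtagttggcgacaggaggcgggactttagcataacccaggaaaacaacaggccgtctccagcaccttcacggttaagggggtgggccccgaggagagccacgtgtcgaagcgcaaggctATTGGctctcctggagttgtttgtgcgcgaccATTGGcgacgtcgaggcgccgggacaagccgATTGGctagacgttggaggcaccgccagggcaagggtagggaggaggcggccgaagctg

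TATAAA began 39 bases before the start site of Angptl4, and such a match was found on the gene strand in 8.06% of all 33469 windows of this length and in 3 of the 33 members. Pdk2 held 3 CCAAT matches. At least 1 was held by 12 of the 33 members and by 34.0% of all windows. At least 3 were held by 3 members (Pdk2, Etfa and Acaa1a) and by 2.52% of all windows. The limit of 3 is the count of Pdk2 itself, so Pdk2 is among these members by the choice of limit. The letters AGGTCA, the half-site of PPARs and their partners, were found in neither window, in 4 of the 33 members (Ucp3, Echs1, Eci1 and Acadvl) and in 14.1% of all windows. AGAACA, a glucocorticoid receptor half-site, was found in neither window, in 2 members (Acot1 and Acot2) and in 17.5% of all windows. The spaced pairs AGGTCANAGGTCA and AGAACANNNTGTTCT were found in 0 of the 33 members, and in 0.0508% and 0.012% of all windows. Except for TATAAA, both strands were searched, and each spaced pair contains the half-site above it. A match is a description of these letters, and their absence from 250 bases says nothing of more distant sites.

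As deposited, replicates 3 and 4 of both groups had lower signals than replicates 1 and 2, and every array was rescaled to a trimmed mean of 500. The trimmed mean as deposited was 500.1 on replicates 1 and 2 and 202 to 336 on replicates 3 and 4, which are called the array sets below. The treatment was visible on these arrays, with 6 of 6 measured glucocorticoid-induced genes higher, Sgk1, Fkbp5, Tsc22d3, Per1, Dusp1 and Klf9 (limma, adjusted p = 1.09e-06 to 0.0414). Of 12 epithelium markers 11 were tested, and 10 were above the level of silent genes, defined below, on all 8 arrays. Among them Scnn1a, the alpha subunit of the epithelial sodium channel, was 2.46-fold higher with dexamethasone (limma adjusted p = 0.0338) and Krt18, a keratin, was lower (log2 fold change -0.47, limma adjusted p = 0.030). The summed signal of the 11 markers was 49500 to 61624 in control and 49277 to 54444 after treatment. The ratio of the 3' to the 5' beta-actin signal, which rises as RNA degrades, was 8.10 to 13.7 on control arrays and 6.17 to 8.07 on dexamethasone arrays, without overlap. The same ratio of GAPDH was 2.10 to 3.79 on control arrays and 2.14 to 3.18 on dexamethasone arrays, and the groups overlapped.

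Of the 30 tested members, 0 were higher and 0 were lower with dexamethasone at an adjusted p under 0.05 (limma, Benjamini-Hochberg over all tested probe sets). Over all tested probe sets 1.88% were higher and 0.81% were lower, so a count of 0 among 30 is close to the background. The fit takes no account of the array sets, which both groups share. Fitted as a block, they left 2 members higher, Angptl4 and Pdk2, and 0 lower, against 3.32% and 2.26% of all tested probe sets. At an unadjusted p under 0.05 (limma), 2 members were higher, Angptl4 and Pdk2, and 1 was lower, Plin2, against 7.96% and 8.16% of all tested probe sets. In 2 members, again Angptl4 and Pdk2, all dexamethasone arrays lay above all control arrays, and in 1, Etfb, all lay below, against 5.57% and 5.46% of all tested probe sets. The median log2 fold change of the tested members was -0.033, with 12 values above 0 and 18 below, beside a median of -0.023 over all tested probe sets. For 10 of the 30 members the 95% interval lay within a 1.3-fold difference in either direction (0.38 on the log2 scale), as it did for 20.0% of all tested probe sets.

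**Figure D1:**
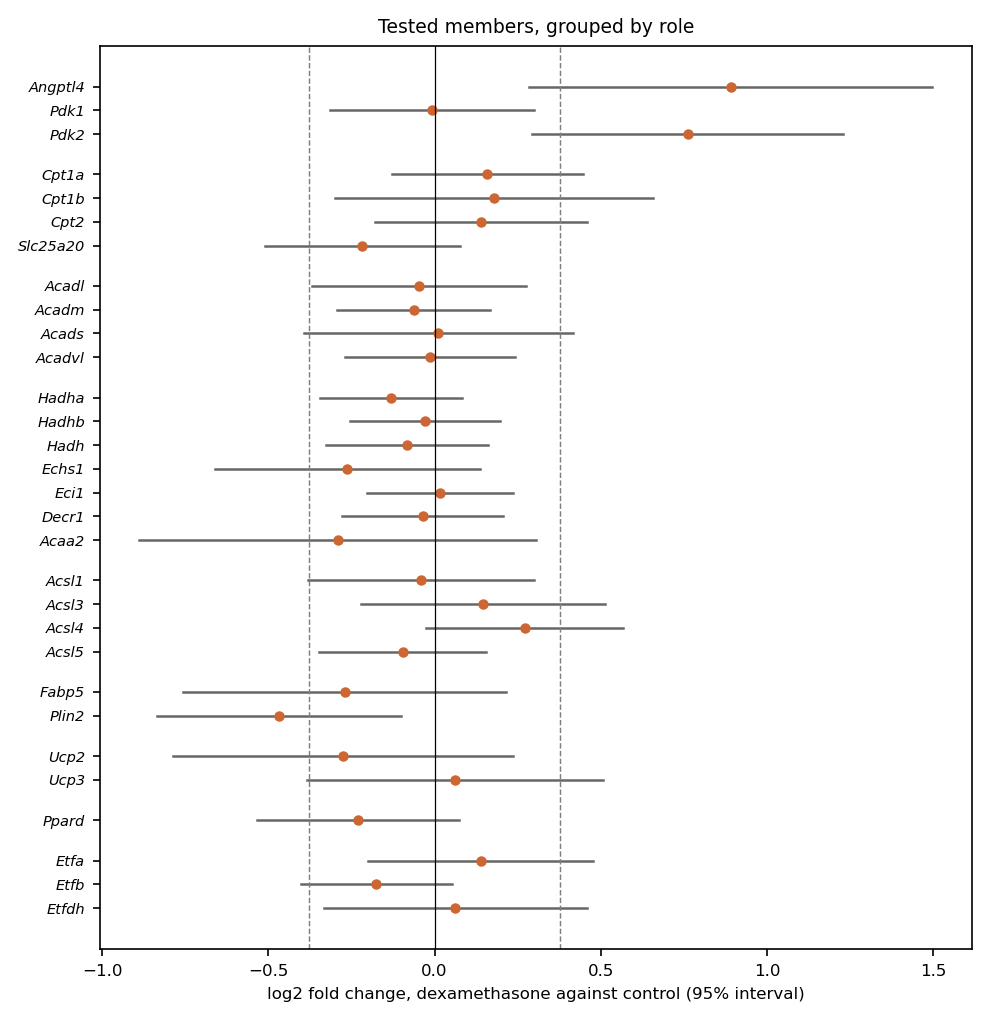
Log2 fold change of the 30 tested members, dexamethasone against control (n = 4 arrays per group), with the 95% interval from limma as a line, in role groups separated by gaps. The dashed lines mark a 1.3-fold difference (0.38 on the log2 scale), and the intervals of Angptl4, Pdk2 and Plin2 alone leave out 0.

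As no detection calls were used, 61 genes that work in unrelated organs, such as those of pancreatic enzymes and lens proteins, were taken as silent, and the 95th percentile of their signals, 103 to 184 on the 8 arrays, served as the level of silent genes. Of the 39 measured members, 26 were above this level on all 8 arrays and 9 on none. The 9 were Pdk4, Ehhadh, Acot1, Acot2, Fabp3, Fabp4, Cd36, Ppara and Pparg, the same genes that did not pass the filter on low signals, and no fold change is given for them. Between these lay Angptl4, above the level on 4 of 8 arrays, Pdk2 on 7, Ucp3 on 3 and Cpt1b on 1. Above the highest silent gene on all 8 arrays were 21 members.

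Among the genes that steer fuel use, Angptl4 and Pdk2 had the higher signals with dexamethasone, Pdk1 differed little and Pdk4 was not above the silent genes. Angptl4 had signals of 144, 143, 125 and 99.8 on control replicates 1 to 4 and of 362, 315, 174 and 152 with dexamethasone. All 4 dexamethasone arrays were above all 4 control arrays, and Angptl4 exceeded the silent genes on 0 of 4 control and 4 of 4 dexamethasone arrays. The mean was 128 ± 20.5 for the controls (SD, n = 4) and 251 ± 104 for dexamethasone (SD, n = 4). Its log2 fold change was 0.89 (SE 0.28, 95% interval 0.28 to 1.50, limma adjusted p = 0.128), and the test was not passed. With the control signals raised to the level of silent genes, the log2 fold change was 0.66, or 1.58-fold, a point value and not a lower limit of the interval. On dexamethasone replicates 3 and 4 the Angptl4 signals, 174 and 152, were under the highest silent gene, at 199.6 and 289. An exact permutation test of the log2 signals gave a two-sided p = 0.0286, below which this design cannot go.

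The Angptl4 signal was lower on replicates 3 and 4 than on replicates 1 and 2 across both groups, a log2 difference of -0.71 that did not pass (limma adjusted p = 0.0623). On replicates 1 and 2 its log2 fold change was 1.24, and on replicates 3 and 4 it was 0.54. The difference between these values was -0.70 and did not pass the test (interaction, unadjusted p = 0.0530, limma adjusted p = 0.787). Fitting the array set as a block brought limma's adjusted p of Angptl4 to 0.0206, past the threshold, and 3.32% of all tested probe sets were then called higher. Lpl, the lipase that Angptl4 inhibits, had signals of 38.2 to 179, above the silent genes on 2 of 8 arrays.

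Pdk2 had signals of 197, 195, 112 and 203 on control replicates 1 to 4 and of 335, 343, 252 and 249.6 with dexamethasone. The groups did not overlap, and control replicate 3 was low beside the other control arrays. Its Pdk2 signal, 112, was under the level of silent genes on that array, 160. All control signals of Pdk2 were under the highest silent gene of their array, at 295 to 395. The same held for dexamethasone replicates 1 and 4, where the highest silent gene was at 357 and 289. Of the 8 arrays, control replicate 3 had the lowest trimmed mean as deposited, 202, and the highest beta-actin and GAPDH ratios, 13.7 and 3.79. The mean was 177 ± 43.1 for the controls (SD, n = 4) and 295 ± 51.0 for dexamethasone (SD, n = 4). The log2 fold change was 0.76 (SE 0.21, 95% interval 0.29 to 1.23, limma adjusted p = 0.0906), short of the threshold. The exact permutation test gave a two-sided p = 0.0286. The array sets gave 0.79 (replicates 1 and 2) and 0.73 (replicates 3 and 4). Fitting the array set as a block brought limma's adjusted p to 0.0319, past the threshold. Without control replicate 3 the log2 fold change was 0.56. With the beta-actin ratio (log2) as a covariate it was 0.38 (limma adjusted p = 0.726), while that of Angptl4 was 0.91 (limma adjusted p = 0.511). The other probe set of Pdk2 had signals of 7.40 to 12.3, under the floor of 16 on all 8 arrays, and gave no second measure.

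Pdk1, a kinase of the same family known to be induced by low oxygen, had signals of 413, 307, 304 and 323 in control and of 338, 327, 366 and 302 with dexamethasone, with a mean of 337 ± 51.2 for the controls (SD, n = 4) and 333 ± 26.8 for dexamethasone (SD, n = 4). The log2 fold change was -0.0072 (95% interval -0.31 to 0.30, limma adjusted p = 0.988), inside the 1.3-fold range. Its weaker probe set gave -0.24 (95% interval -0.64 to 0.17, limma adjusted p = 0.583), not inside that range. No test between the isoforms was made. Pdk4, the isoform best known as a target of fasting and glucocorticoids, had signals of 116, 90.3, 89.4 and 89.8 in control and of 104, 67.7, 83.9 and 53.4 with dexamethasone. The Pdk4 signals overlapped between the groups and were under the level of silent genes on all 8 arrays.

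**Figure D2:**
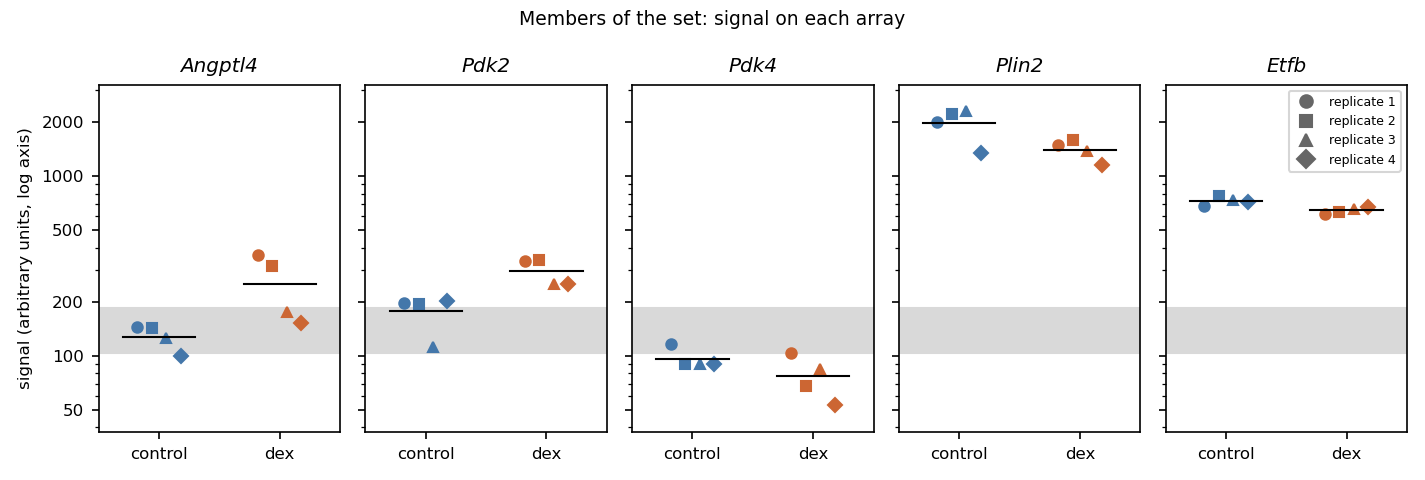
Signal of 5 members on each array (symbols by replicate number, log axis in arbitrary units) with the group mean as a line, in control and with dexamethasone (dex). The grey band spans the level of silent genes over the 8 arrays, 103 to 184, and the groups do not overlap in Angptl4, Pdk2 and Etfb.

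In the carnitine shuttle, 0 of 4 tested members passed the test, with log2 fold changes of -0.22 to 0.18 and adjusted p of 0.477 to 0.747 (limma). Cpt1a, the carnitine palmitoyltransferase that sets the rate of fatty acid entry in most tissues, had signals of 710.4, 819.7, 720.4 and 628 in control and of 754, 780.5, 714 and 976 with dexamethasone. The groups overlapped, and dexamethasone replicate 4 was the highest. The log2 fold change was 0.16 (95% interval -0.13 to 0.45, limma adjusted p = 0.607), and its other probe set gave -0.23 (limma adjusted p = 0.551), so the probe sets differ in sign. Slc25a20, the carnitine-acylcarnitine carrier of the inner membrane, had signals of 628, 510.0, 691 and 512 in control and of 533, 505, 517 and 445 with dexamethasone, with a log2 fold change of -0.22 (95% interval -0.51 to 0.075, limma adjusted p = 0.477). Cpt2, which rebuilds acyl-CoA in the matrix, had signals of 276 to 398. Cpt1b, the muscle form of the outer enzyme, had signals of 91.3 to 155.

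The 4 acyl-CoA dehydrogenases, which take the first oxidation step for chains of different length, exceeded the silent genes on all 8 arrays, and 0 passed the test. Their log2 fold changes were the closest to 0 of all the role groups, at -0.063 to 0.012 (limma adjusted p = 0.827 to 0.986). Acadm, the medium-chain enzyme, had signals of 1071, 1018.5, 981 and 1017 in control and of 1090.3, 929, 884 and 1021 with dexamethasone. The groups overlapped, with a log2 fold change of -0.063 (95% interval -0.29 to 0.17, limma adjusted p = 0.827). The intervals of Acadm, Acadl (long chain) and Acadvl (very long chain) lay within the 1.3-fold range, and that of Acads (short chain), -0.39 to 0.42, did not.

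Of the 7 tested enzymes of the later steps of beta-oxidation, 0 passed the test, and their log2 fold changes were -0.29 to 0.016 (limma adjusted p = 0.530 to 0.965). Hadhb, the thiolase subunit of the trifunctional protein, had signals of 2187, 2128, 2339.9 and 2701 in control and of 2202, 2113, 2395 and 2435 with dexamethasone, a log2 fold change of -0.029 (95% interval -0.25 to 0.20, limma adjusted p = 0.927). Its partner subunit Hadha had a log2 fold change of -0.13 (95% interval -0.34 to 0.083, limma adjusted p = 0.564). Both subunits lay within the 1.3-fold range, as did Hadh, Eci1 and Decr1, the enzymes that handle hydroxyacyl groups and double bonds. Echs1, the short-chain enoyl-CoA hydratase, had signals of 665, 897, 747 and 600.3 in control and of 752, 720.3, 455 and 523 with dexamethasone. The lowest values were on dexamethasone replicates 3 and 4, and its log2 fold change of -0.26 (95% interval -0.66 to 0.14, limma adjusted p = 0.530) was -0.069 on replicates 1 and 2 and -0.46 on replicates 3 and 4. Acaa2, the mitochondrial thiolase, had the widest spread of this group, with signals of 193 to 492 and a log2 fold change of -0.29 (95% interval -0.89 to 0.30). Ehhadh, a peroxisomal bifunctional enzyme and a classic PPAR alpha target, had signals of 12.2 to 71.5.

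Of the acyl-CoA synthetases, which activate fatty acids, 0 of 4 passed the test, with log2 fold changes of -0.096 to 0.27 (limma adjusted p = 0.358 to 0.932). Acsl4, which prefers arachidonic acid, had signals of 1058, 1288, 819 and 1064 in control and of 1216, 1349, 1174 and 1308 with dexamethasone. The groups overlapped through control replicate 2, and the log2 fold change was 0.27 (95% interval -0.025 to 0.57, limma adjusted p = 0.358). Acsl5 had signals of 1968, 1825, 2555 and 2018 in control and of 1972, 2001, 2023 and 1778 with dexamethasone. The value of -0.096 (95% interval -0.35 to 0.16) lay within the 1.3-fold range. Acsl3 had log2 fold changes of -0.15 on replicates 1 and 2 and 0.44 on replicates 3 and 4, where control replicate 3 was low, at 951 against 1555 to 1618 on the other control arrays. Acot1, a thioesterase that releases free fatty acids from acyl-CoA, had signals of 75.0, 51.0, 76.2 and 67.8 in control and of 134, 112, 99.3 and 78.2 with dexamethasone. These signals did not overlap between the groups (exact permutation test, two-sided p = 0.0286), but all 8 were under the level of silent genes, and in a fit over all 15866 probe sets other than controls the adjusted p was 0.274 (limma). Its neighbour Acot2 was at 2.98 to 24.8.

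Plin2, a coat protein of lipid droplets, had the lowest log2 fold change of the 30 members. Its signals were 1993, 2219.6, 2314 and 1349 in control and 1492, 1586, 1381 and 1156 with dexamethasone. The groups overlapped because control replicate 4 was below 3 of the 4 dexamethasone arrays. The mean was 1969 ± 435 for the controls (SD, n = 4) and 1404 ± 185 for dexamethasone (SD, n = 4), and the log2 fold change was -0.47 (SE 0.17, 95% interval -0.83 to -0.10, limma adjusted p = 0.189). It did not pass the test, nor did the exact permutation test (two-sided p = 0.114). The array sets gave -0.45 (replicates 1 and 2) and -0.48 (replicates 3 and 4). Without control replicate 4 the value was -0.64 and passed the threshold (limma adjusted p = 0.0275), in a fit that called 0.801% of all tested probe sets lower. A weaker probe set of Plin2, at 114 to 221, gave -0.10 (limma adjusted p = 0.865).

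Fabp5, a fatty acid binding protein of epithelia, had signals of 2745, 3821, 3118 and 2413 in control and of 2514, 3386, 1496 and 2926 with dexamethasone, with dexamethasone replicate 3 the lowest. The groups overlapped, and its log2 fold change was -0.27 (95% interval -0.76 to 0.22, limma adjusted p = 0.606). The binding proteins of muscle and fat cells and the uptake receptor were low, with Fabp3 at 11.6 to 90.1, Fabp4 at 1.81 to 6.10 and Cd36 at 3.71 to 34.5. Ucp2, an inner membrane carrier related to the thermogenic uncoupling protein, had signals of 1567, 1722, 1146 and 879 in control and of 1203, 1496, 859.8 and 816 with dexamethasone. The log2 fold change with dexamethasone was -0.28 (95% interval -0.79 to 0.23, limma adjusted p = 0.619). Across both groups Ucp2 was lower on replicates 3 and 4 than on replicates 1 and 2, a log2 difference of -0.70 (limma adjusted p = 0.0150), the only member of 30 called lower there, against 2.0% of all tested probe sets. Ucp3, its muscle relative, was at 117 to 199.8.

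Of the receptors, Ppard alone was above the silent genes. Ppard, the most widely expressed PPAR, had signals of 554, 543, 489.9 and 452 in control and of 426, 536, 376 and 409 with dexamethasone. The groups overlapped through dexamethasone replicate 2, and the log2 fold change was -0.23 (95% interval -0.53 to 0.072, limma adjusted p = 0.466). The weaker probe set of Ppard had signals of 3.60 to 45.4, under the level of silent genes on all 8 arrays. Ppara, the receptor that drives fatty acid oxidation in liver, had signals of 14.5, 8.60, 12.4 and 8.19 in control and of 11.7, 13.1, 8.91 and 10.2 with dexamethasone, under the floor of 16 on all 8 arrays. Pparg, the receptor of fat cell differentiation, had signals of 77.9, 56.2, 107 and 47.1 in control and of 97.1, 90.4, 66.6 and 75.4 with dexamethasone, which overlapped.

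Of the electron transfer flavoprotein and its oxidoreductase, 0 of 3 members passed the test. Etfb, the beta subunit, had signals of 682.5, 779, 733 and 718 in control and of 616, 630.4, 660.1 and 672 with dexamethasone. All dexamethasone arrays were below all control arrays, by a small margin, and the log2 fold change was -0.18 (95% interval -0.40 to 0.051, limma adjusted p = 0.461, exact permutation test two-sided p = 0.0286). Etfa, the alpha subunit, had signals of 1665.5, 2081, 1166 and 1752 in control and of 1629.6, 1789.6, 1883 and 1894 with dexamethasone. The log2 fold change was 0.14 (95% interval -0.20 to 0.48, limma adjusted p = 0.720), so the values of the subunits had opposite signs. Etfdh, which hands the electrons to ubiquinone, had a log2 fold change of 0.062 (95% interval -0.33 to 0.46).

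Within the array sets, 18 of the 30 tested members had the same sign in both, beside 61.5% of all tested probe sets. Angptl4, Pdk2 and Plin2 were among these 18. For the treatment by array set interaction 0 of all tested probe sets passed at an adjusted p under 0.05 and 5.66% at an unadjusted p under 0.05 (limma).

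**Figure D3:**
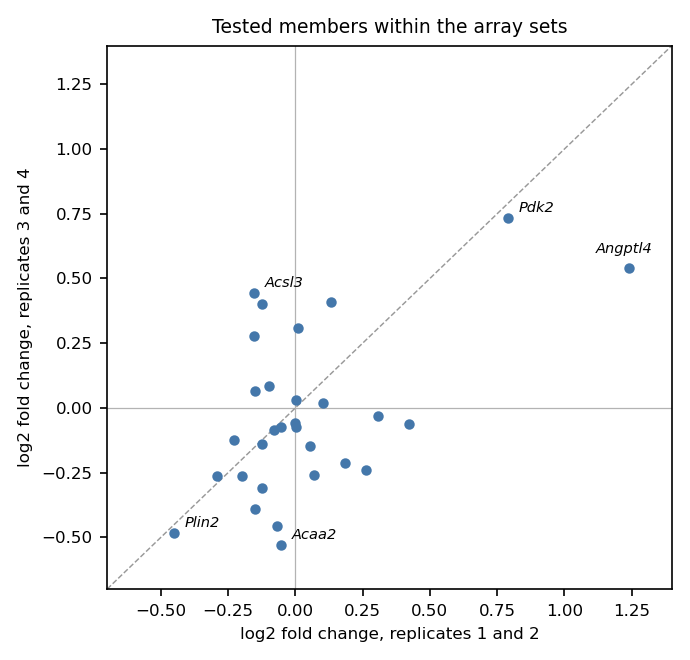
Log2 fold change of each tested member (points, 30 genes), dexamethasone against control, in replicates 1 and 2 (horizontal axis) and in replicates 3 and 4 (vertical axis), with the dashed line at equal values. Pdk2 (0.79 and 0.73) and Plin2 (-0.45 and -0.48) lie near the line, and Angptl4 (1.24 and 0.54) lies below it.

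Of 125 other genes of the pathway that are not members, 103 had a probe set, 71 were tested, 0 were higher and 3 were lower with dexamethasone (limma, adjusted p under 0.05), against 1.88% and 0.81% of all tested probe sets. At an unadjusted p under 0.05, 4 were higher and 5 were lower (limma), against 7.96% and 8.16% of all tested probe sets. The 3 that fell were Acot7, Mgll and Eci2, each from another list. Acot7, a cytosolic thioesterase that hydrolyses long-chain acyl-CoA, had signals of 1717, 1925, 2305 and 2056 in control and of 1105, 1054, 1052 and 1298 with dexamethasone. The groups were far apart, and Acot7 fell by 0.83 on the log2 scale (SE 0.12, limma adjusted p = 0.00271). Acot7's second probe set was under the floor on all arrays. Mgll, the lipase that splits monoacylglycerols, had signals of 999.5, 779.9, 910.3 and 790.5 in control and of 578, 460.1, 479 and 564 with dexamethasone, and fell by 0.74 (SE 0.13, limma adjusted p = 0.00931). The other tested probe sets of Mgll gave -0.55 and -0.32 (limma adjusted p = 0.127 and 0.589), below 0 as well. Eci2, an enoyl-CoA isomerase of peroxisomes and mitochondria, had signals of 970.3, 1020.5, 1300.4 and 1023 in control and of 696, 642, 702 and 741 with dexamethasone, and fell by 0.63 (SE 0.12, limma adjusted p = 0.0157).

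All 3 were without overlap between the groups and had values of -0.57 to -0.90 within the array sets. With the beta-actin ratio as a covariate they were at -0.72, -0.72 and -0.45 and did not pass (limma adjusted p = 0.0899, 0.159 and 0.334), in a fit that called 0.0772% of all tested probe sets lower. Eci2 also lost the call without dexamethasone replicate 2 (limma adjusted p = 0.0546), without the filter on low signals and with median centring. The part of RNA quality in these differences was not tested further.

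The other lists gave 0 calls in either direction. Of the retinoid X receptors and coregulators of PPARs, 0 of 7 tested passed, and the smallest p belonged to Med1, a subunit of the Mediator complex, with signals of 712, 778, 780.3 and 768 in control and of 663, 554, 731 and 684 with dexamethasone (log2 fold change -0.21, limma adjusted p = 0.416). Of the pyruvate dehydrogenase complex and its regulators, the target of the Pdk kinases, 0 of 10 tested passed. Pdha1, the subunit that those kinases phosphorylate, had signals of 2069, 2000.4, 1702 and 2181 in control and of 2383, 2322, 2304 and 3100 with dexamethasone, without overlap. The difference on the log2 scale was 0.34 (95% interval 0.075 to 0.61, limma adjusted p = 0.186), and its weaker probe set gave 0.65, also without overlap (limma adjusted p = 0.103). Of the other PPAR targets, 0 of 14 tested passed, and the smallest p belonged to Me1, malic enzyme, with signals of 565, 589, 425 and 476 in control and of 408, 397, 338 and 359 with dexamethasone. Me1 did not overlap between the groups and had a log2 fold change of -0.44 (95% interval -0.75 to -0.14, limma adjusted p = 0.128), which passed once the array set was fitted as a block (limma adjusted p = 0.0339), where 2.26% of all tested probe sets were called lower. In that fit Vnn1, a pantetheinase of the same list, was called higher (log2 fold change 0.90, limma adjusted p = 0.0347), as was the weaker probe set of Pdha1 (limma adjusted p = 0.0275). The weaker probe set of Me1 gave -0.23 (limma adjusted p = 0.425).

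**Figure D4:**
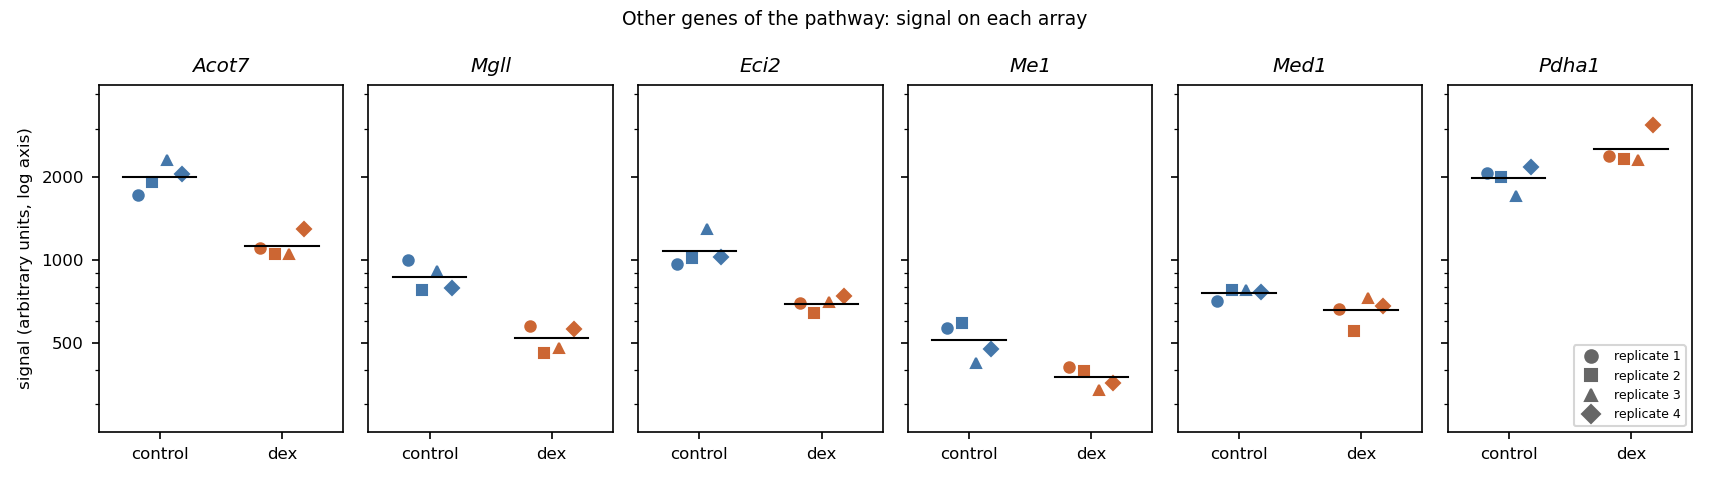
Signal of 6 other genes of the pathway on each array (symbols by replicate number, log axis in arbitrary units) with the group mean as a line, in control and with dexamethasone (dex). The dexamethasone arrays lie below all control arrays in Acot7, Mgll, Eci2 and Me1, above them in Pdha1, and overlap with them in Med1.

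Markers of other cell types were measured beside these genes, since fewer cells of a type and less RNA per cell cannot be told apart in such cultures. Of 10 adipocyte markers 7 had a probe set, 3 were tested and 0 passed. The summed signal was 433 to 776 in control and 451 to 862 with dexamethasone. Above the level of silent genes were 1 of the 7 on all 8 arrays and 4 on none, and Lep was under the floor on all 8. Of 10 endothelium markers 8 had a probe set and 4 were tested, with Kdr higher and Flt1 lower (log2 fold change 2.00 and -1.96, limma adjusted p = 2.98e-05 and 0.020). Their summed signal was 1375 to 1725 in control and 3174 to 3816 after treatment, while Pecam1, Tie1, Vwf and Emcn exceeded the silent genes on 0 of 8 arrays. Of the 8 endothelium markers, 3 exceeded the silent genes on all 8 arrays. Of 12 macrophage markers 10 had a probe set, 5 were tested and 0 passed. The summed signal was 1023 to 1609 in control and 1351 to 4990 with dexamethasone. Above the level of silent genes were 2 of the 10 on all 8 arrays and 5, Ptprc among them, on none. In 1 tested macrophage marker the groups did not overlap and dexamethasone was higher. The smallest adjusted p of the list was 0.0809 (limma). Of 9 fibroblast markers 5 were tested and 0 passed, with summed signals of 5928 to 7677 (control) and 4581 to 7727 (dexamethasone). Above the level of silent genes were 5 of the 9 on all 8 arrays and 3 on none. With the array set as a block 1 fibroblast marker was called lower, against 2.26% of all tested probe sets. Of 12 striated muscle markers 4 were tested and 0 passed, and 1 of the 12 exceeded the silent genes on all 8 arrays. Of 9 melanocyte and Schwann cell markers 3 had a probe set, 2 were tested and 0 passed. Above the silent genes on all 8 arrays were 2 of these 3. The part of such cells in the signals of Angptl4, Pdk2 and Plin2 was not tested.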

How the data were processed

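The authors amplified RNA from the cultures by repeated in vitro transcription, and the values here are from Affymetrix RAE 230A arrays. The paper also lists the B array of this set, which is not part of these values. The authors deposited 1 signal intensity per probe set and array, on a linear scale, made with the Affymetrix statistical algorithms and, per the labels, scaled to a target of 500. Of 15923 probe sets, 57 are controls. All signals of an array were rescaled by a common factor (2% trimmed mean of 500), raised to a floor of 16 where lower, and log2 transformed. A mean signal of 100 or more was required for testing and was met by 10368 of 15866. Values of members below it come from a fit without the filter. The groups were tested with limma 3.58.1 (R 4.3.3, lmFit, then eBayes with a trend, two-sided) and Benjamini-Hochberg adjustment at 0.05 over all tested probe sets. Single genes were also compared by an exact permutation test of 70 arrangements. The scripts were tested on simulated data. The number of arrays limits the precision.

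The array annotation gives 1 gene symbol to 12783 probe sets, several to 312 and none to 2771. The members and lists were chosen with earlier results of these data known. Values on every array are given, in each role group, for the tested member with the smallest p and the one with the highest mean signal, for the receptors, and for other pathway genes past the test or, in lists without one, that with the smallest p. Members outside this rule, Angptl4, Pdk4 and Acot1 among them, were named after their values were seen. The alternatives were other scalings, filters, floors and variance models, the array set or the replicate number as a block, each array set alone, the beta-actin ratio as a covariate, the mean of all probe sets, the study's limit of 1.3-fold without a test, and leaving out each array. Other levels of silent genes and the array set block without a filter were added after seeing the data.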

Additional observations from a re-analysis of the deposited data

Results flagged for a closer look

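Groups of 4 arrays were examined for the 30 tested members and for the 6 other pathway genes with values on every array above. The other tested pathway genes were not examined. In 4 of 72 groups, 1 array lay far from the others. Its gap to the nearest array, over the range of the log2 signals, was above Dixon's 95% critical value. Chance gives such a gap in about 1 of 20 groups. Pdk2 was low on control replicate 3, at 112 against 195 to 203 (gap over range 0.936). Acsl3 was low on the same array, at 951 against 1555 to 1618 (gap over range 0.926). Decr1 was high on control replicate 2, at 1218 against 1015 to 1043 (gap over range 0.848). Pdha1 was high on dexamethasone replicate 4, at 3100 against 2304 to 2383 (gap over range 0.886).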

How the results depend on the processing

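The count of 0 members higher became 2, Angptl4 and Pdk2, with the array set as a block, with the replicate block, in replicates 1 and 2 alone and at a fold of at least 1.3 without a test. The count of 0 members lower became 1, Plin2, with the replicate block and at a fold of at least 1.3, and was 0 to 1 over leaving out each array. Other pathway genes higher, 0, became 1 with the array set as a block and with the replicate block, and 4 at a fold of at least 1.3. Other pathway genes lower, 3, became 0 with the beta-actin ratio as a covariate, in replicates 3 and 4 alone and on the signals as deposited, 1 with the mean of all probe sets and 5 at a fold of at least 1.3. The median of the members, -0.033, was 0.13 on the signals as deposited, where the median of all tested probe sets moved from -0.023 to 0.14. Leaving out the rescaling by itself adds 0.16 to each log2 fold change, since the mean log2 factor was 0.47 in control and 0.31 with dexamethasone. The causes of the changed counts were not tested. Over all tested probe sets 279 passed the test (195 higher and 84 lower), against 38 as deposited (34 higher and 4 lower), 102 without a filter, 65 with the beta-actin covariate, 578 with the array set as a block, 484 with the replicate block, 440 in replicates 1 and 2, 21 in replicates 3 and 4, 168 with the mean of all probe sets (of 7481), 180 to 275 without 1 array, and 762 higher and 732 lower at a fold of at least 1.3. The deviations of arrays with the same number correlated at 0.35, 0.25, 0.035 and 0.41. The numbers were not taken as a pairing because replicate 3 was near 0 and some arrays of other numbers in the same array set correlated as well, at 0.33 for control replicate 1 with dexamethasone replicate 2 and 0.43 for control replicate 4 with dexamethasone replicate 3. The level of silent genes at the 90th percentile left 27 members above it on all arrays. Angptl4, Pdk2, Plin2, Acot7, Mgll and Eci2 had the same direction under all alternatives that gave a value.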
